A study of Mus musculus with 24 samples.

Results

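The subunits of the mitochondrial respiratory chain were followed in mouse liver with and without the Rev-erb nuclear receptors. Members were all array probes whose annotated gene symbol starts with Ndufa, Ndufb, Ndufc, Ndufs or Ndufv and a number, with Uqcr, with Cox and a number from 4 to 8, or with Atp5, or is Sdha, Sdhb, Sdhc or Sdhd. This gave 79 of 16593 annotated genes, read by 98 of 25697 probes. Liver RNA of wild-type (WT) controls and of animals with a liver-specific knockout of both Rev-erb alpha and Rev-erb beta (double knockout, DKO) was hybridised to Illumina bead arrays at ZT0, ZT4, ZT8, ZT12, ZT16 and ZT20 (hours after lights on). All mice were male, 20 weeks old and on the c57Bl6/J background. The strain of the DKO was Reverbalpha/beta Alb Cre+ and that of the WT was Reverbalpha/beta Alb Cre-, so the groups differed in whether they carried Cre recombinase. The albumin promoter drives Cre in hepatocytes, and other liver cells keep the genes. Each genotype and time was 1 RNA sample on 2 technical replicate arrays, which were averaged, giving 12 samples from 24 arrays. The labels do not say how many animals went into a sample. With no separate animals known, a p-value reflects the scatter of these samples alone, and the 6 times serve as replicates of a genotype.

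The respiratory chain passes electrons from NADH (complex I, the Nduf subunits) and from succinate (complex II, the Sdh subunits) through ubiquinone to complex III (the Uqcr subunits), cytochrome c and complex IV (the Cox subunits). Complexes I, III and IV pump protons across the inner mitochondrial membrane, and complex V (the Atp5 subunits) uses the gradient to make ATP. The members are nuclear genes, and many have binding sites for NRF1 and for the ETS factor GABP in their promoters. Rev-erb alpha and beta, encoded by Nr1d1 and Nr1d2, are transcriptional repressors of the circadian clock that bind DNA sites with the core AGGTCA, and liver is a tissue rich in mitochondria.

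Both arrays of a sample correlated at 0.989 to 0.994 and the SD between them over the members was 0.114 to 0.165 (log2), with 38.1 to 40.6 beads per probe on average. The number of samples limits the precision. The arrays filled 3 slides. The DKO samples of ZT0, ZT4, ZT8 and ZT12 were on slide 1, the WT samples of ZT8, ZT12, ZT16 and ZT20 on slide 3, and the remaining 4 samples (WT at ZT0 and ZT4, DKO at ZT16 and ZT20) on slide 2. The slides differed in signal. On slide 1, all DKO, 34.8% to 37.2% of probes were detected and the median raw intensity was 277 to 341, and on slide 3, all WT, 38.2% to 40.2% and 245 to 261, with no overlap. At each time the genotypes lay on different slides, and there genotype and slide cannot be told apart. The targeted genes gave more signal in DKO than in WT. An Nr1d1 probe lay between 6.42 and 10.51 in WT and between 8.81 and 11.03 in DKO (normalized log2 intensity), and an Nr1d2 probe between 7.70 and 10.92 and between 9.58 and 10.14. In daily mean both were higher in DKO (by 1.60 and 0.52, limma adjusted p of 0.0132 and 0.026). A second Nr1d1 probe was higher too (1.27, limma adjusted p = 0.041). It was detected on only 6 WT and 11 DKO arrays, with a lowest WT value of 5.30. The labels do not place these probes inside or outside the deleted exons, so the signals are no check of the deletion. Of 4 detected hepatocyte marker probes, Pck1 was lower in DKO, with a difference of -0.57 (limma adjusted p = 0.019). The dim Alb probe was detected on 8 WT arrays and 1 DKO array of 12 each. It passed the detection filter described below only through WT samples, so it had to differ, and its difference is not given. The other 2, Apoa1 and Ttr, lay between 16.09 and 16.13 in all 12 samples, at the top of the signal range, where a change could not show. Among markers of other cells, the cholangiocyte marker Sox9 (detected on 6 WT and 10 DKO arrays, difference of 1.00, limma adjusted p = 0.0203) and the endothelial marker Lyve1 (0.86, limma adjusted p = 0.0457) were higher in DKO, and the DKO ZT0 sample had the highest summed neutrophil, Kupffer cell, endothelial and lymphocyte signals. The neutrophil signal of that sample was 12.42 against 9.28 to 10.14 in WT, its Kupffer cell signal 12.82 against 11.37 to 11.97, and its endothelial signal 14.67 against 14.01 to 14.22 (log2 of the sum). All 7 striated muscle probes were undetected on every array, as were Adipoq, Plin1 and Ucp1 of the adipocyte list. Cidea, the fourth adipocyte marker, was detected on 6 WT arrays and 0 DKO arrays and reached 10.74 at WT ZT20. Like Alb it passed the filter only through WT samples, so it had to be lower in DKO, and its p-value is not given. The part of these marker differences in the results below was not tested.

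Of the 98 member probes, 84 for 69 genes passed the detection filter, which asked that in 2 or more of the 12 samples each array had a detection p under 0.01. Detection was complete, on all 24 arrays, for 81 of them. The 3 detected on only some arrays were the Ndufb11 probe (11 WT and 7 DKO arrays), 1 Ndufv3 probe (11 and 10) and 1 Sdhb probe (7 and 2). That Sdhb probe passed the filter only through WT samples, so it had to differ, and its difference is not given. The 14 probes left out were undetected on every array. They were the probes for Ndufs1, Uqcrfs1, Uqcrq, Cox4i2, Cox6a2, Cox7b2, Cox8b, Cox8c and Atp5k, both Cox6b2 probes, and 1 probe each of Ndufb11, Sdhc and Atp5j, genes for which another probe was kept. Cox4i2, Cox6a2, Cox6b2, Cox7b2, Cox8b and Cox8c encode isoforms known from lung, muscle, testis or brown fat, whereas Ndufs1, Uqcrfs1, Uqcrq and Atp5k encode subunits of the chain in all tissues. Complex I was covered by 40 kept probes, complex II by 5, complex III by 7, complex IV by 14 and complex V by 16. The other 2 probes were for Cox7a2l, which helps complexes III and IV join into supercomplexes, and for Ndufs5-ps, whose symbol is that of a pseudogene.

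In the daily mean, the fitted average over the 6 times, 8 of the 84 kept members were lower in DKO and 0 were higher (limma, adjusted p under 0.05). The share lower was 9.52%, beside 5.81% of all 10243 probes tested, and 4.15% of all probes were higher, 9.96% in all. At an unadjusted p under 0.05, 21 members were lower and 0 higher, where 15.4% and 12.9% of all probes were. The difference (DKO minus WT, log2) was negative for 67 of the 84, with a median of -0.15 beside 0.00 for all probes. Over the 81 members detected on all 24 arrays, 8 were lower, 20 at an unadjusted p under 0.05. Of these 81, 65 had a negative difference, and the median was -0.14. The median rested largely on ZT0, being -0.06 without that time, -0.09 without the DKO ZT0 sample and -0.11 without the WT ZT0 sample. A lower value in DKO at 6 of 6 times was seen for 20 members, beside 10.6% of all probes. All 6 DKO samples lay below all 6 WT samples for 6 members (7.14%, beside 2.31% of all probes), and 0 members lay wholly above (1.87% of all probes). These 6 were Ndufa5, Ndufb5, Ndufs4, Uqcrb, Cox6a1 and Cox6c. In bulk liver, fewer cells of a type and less RNA per cell cannot be told apart.

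**Figure D1:**
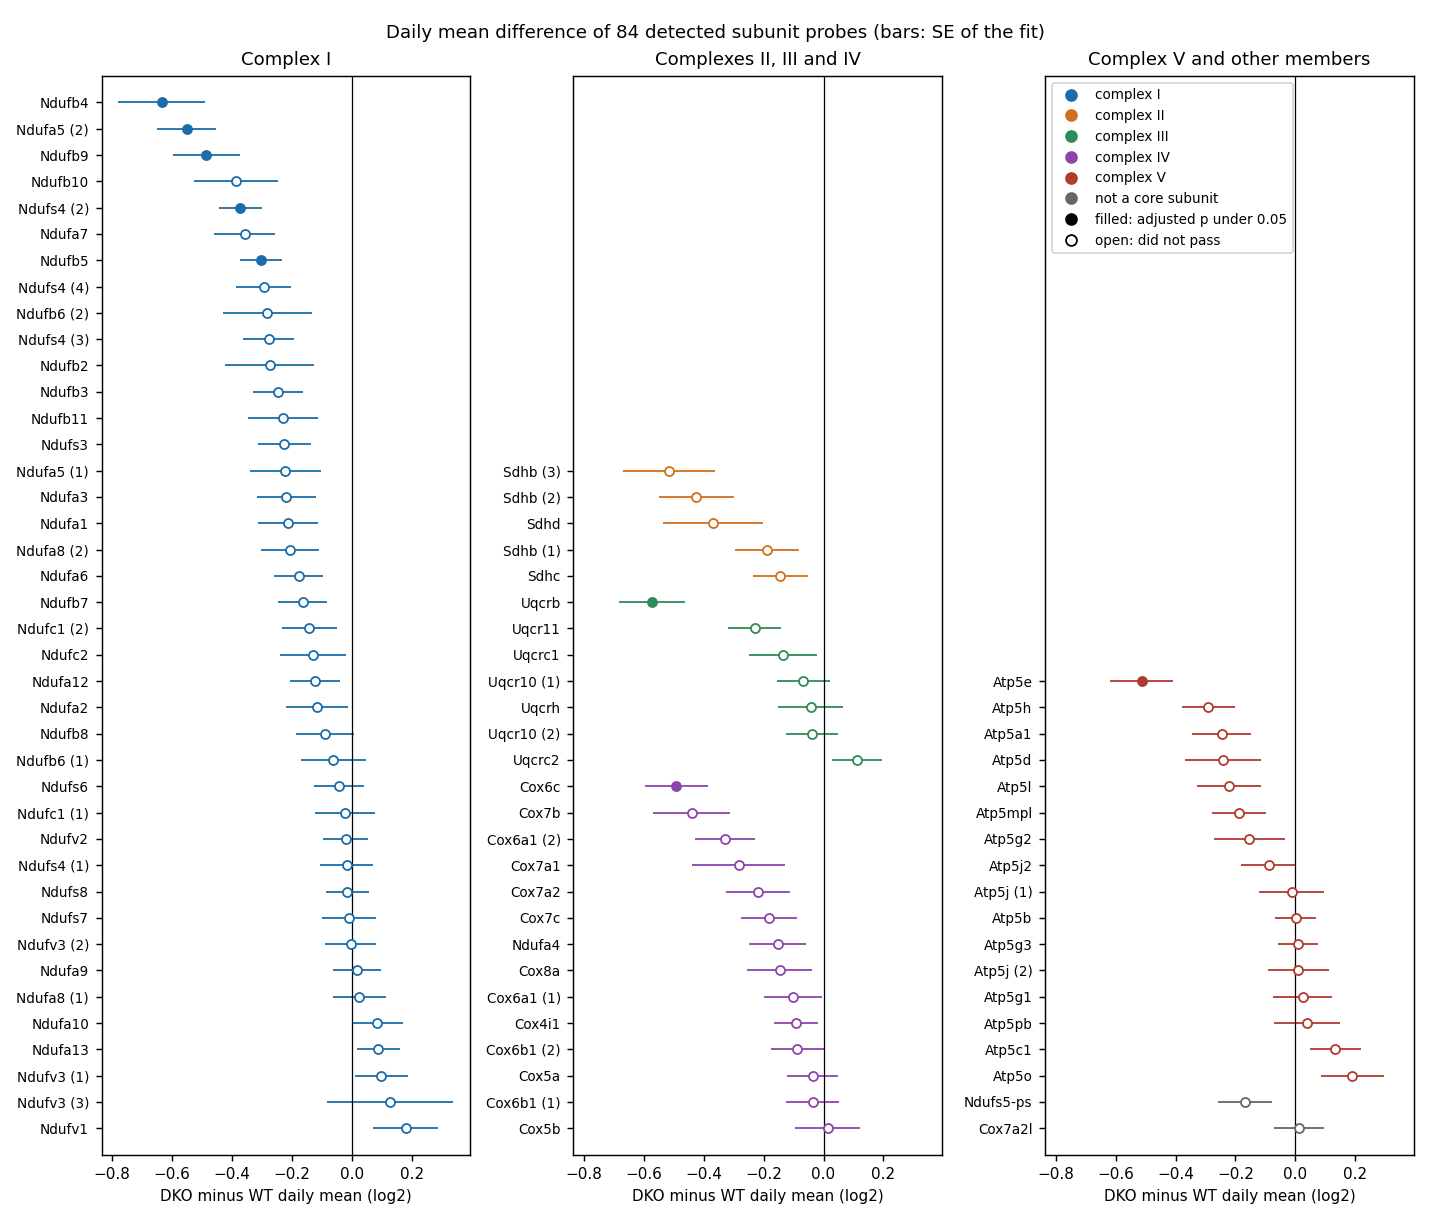
Difference in daily mean (DKO minus WT, log2, horizontal axis) of the 84 detected member probes in 3 panels by complex, with the SE of the fit as bars and a number after the symbol where a gene has several probes. The 8 filled points passed limma's test and all lie to the left of 0, between -0.63 and -0.30, and 67 of the 84 points lie left of 0, among them the Sdhb probe that was detected on 2 of 12 DKO arrays.

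Complex I had 5 of its 40 kept probes lower (12.5%, beside 5.81% of all probes) and 0 higher. It had 33 negative differences, with a median of -0.15. The 5 are all accessory subunits, which surround the catalytic core. Ndufb4, Ndufb5 and Ndufb9 belong to the membrane arm, and Ndufa5 and Ndufs4 to the arm that reaches into the matrix, where Ndufs4 is needed for a stable complex. Values below are normalized log2 intensities from ZT0 to ZT20 in order. Ndufb4 read 8.71, 9.0, 8.57, 8.21, 8.63 and 9.50 in WT and 8.06, 7.88, 8.09, 8.18, 8.26 and 8.35 in DKO. WT was highest at ZT20 and lowest at ZT12, where the genotypes nearly met, and the ranges overlapped. The difference was -0.63 ± 0.14 (SE, n = 6 times per genotype), 1.55-fold lower in DKO with limma adjusted p = 0.027. It was -0.07 with slide as a fixed term and -0.55 within slide 2. Values within slide 2, here and below, set DKO ZT16 and ZT20 against WT ZT0 and ZT4, so they compare unlike times of day. The Ndufa5 probe that passed read 9.83, 9.31, 9.38, 9.24, 9.28 and 9.76 in WT and 8.69, 8.87, 8.75, 8.97, 9.20 and 9.01 in DKO. WT peaked at ZT0 and ZT20, DKO was highest at ZT16, and the groups did not overlap. It was 1.47-fold lower in DKO (-0.55 ± 0.10, limma adjusted p = 0.0128), with a difference of -0.17 with slide as a fixed term and -0.47 within slide 2. The other Ndufa5 probe differed by -0.22 ± 0.12 and did not pass (limma adjusted p = 0.249).

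Ndufb9 read 11.23, 10.71, 10.87, 10.77, 11.26 and 11.26 in WT and 10.17, 10.38, 10.49, 10.44, 10.97 and 10.72 in DKO. Each DKO value was below the WT value of its time, but DKO ZT16 lay above the lowest WT samples, so the ranges overlapped. The difference of -0.49 ± 0.11 (limma adjusted p = 0.0273) turned to 0.06 with slide as a fixed term and was -0.12 within slide 2. The Ndufs4 probe that passed read 12.74, 12.50, 12.45, 12.42, 12.68 and 12.63 in WT and 12.26, 12.11, 12.02, 12.15, 12.28 and 12.37 in DKO. DKO was lowest at ZT8 and stayed under every WT sample. Its difference was -0.37 ± 0.07 (limma adjusted p = 0.0161), with a difference of -0.45 with slide as a fixed term and -0.30 within slide 2. Ndufs4 had 4 kept probes, with differences from -0.37 to -0.02, all negative, of which 1 passed. Ndufb5 read 11.52, 11.41, 11.24, 11.21, 11.29 and 11.36 in WT and 10.92, 11.09, 11.06, 11.10, 11.03 and 11.01 in DKO. WT was highest at ZT0, DKO varied by less than 0.2 over the day, and the groups did not overlap. The difference was -0.30 ± 0.07 (limma adjusted p = 0.0298), with a difference of -0.33 with slide as a fixed term and -0.44 within slide 2.

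At the other end of complex I stood Ndufv1, the core subunit that binds NADH and the flavin. Ndufv1 read 14.17, 14.46, 14.52, 14.32, 14.44 and 14.49 in WT and 14.20, 14.60, 14.62, 14.72, 14.59 and 14.75 in DKO. DKO was higher at 6 of 6 times by small amounts, the ranges overlapped, and the difference of 0.18 ± 0.11 did not pass (limma adjusted p = 0.308). Ndufv3, an accessory subunit beside it, had 3 kept probes with differences from 0.00 to 0.13, of which 0 passed. The dim Ndufv3 probe read 7.28, 7.53, 7.52, 7.10, 7.21 and 7.15 in WT and 6.78, 7.80, 7.80, 6.90, 7.82 and 7.47 in DKO. Its DKO samples varied over a wider span than WT, on both sides of it (0.13 ± 0.21, limma adjusted p = 0.727).

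The promoters of 3 genes of complexes I and V are shown because they held one of the motifs searched for, among the 5 of the 8 genes lower in DKO that have a RefSeq promoter here. The other 3 are Ndufb9, Uqcrb and Cox6c. Each run is the 250 bases before the RefSeq transcription start on GRCm38.p6, minus strand, with motif matches on either strand of the run in capitals.
Ndufb4, chr16:37654369-37654618: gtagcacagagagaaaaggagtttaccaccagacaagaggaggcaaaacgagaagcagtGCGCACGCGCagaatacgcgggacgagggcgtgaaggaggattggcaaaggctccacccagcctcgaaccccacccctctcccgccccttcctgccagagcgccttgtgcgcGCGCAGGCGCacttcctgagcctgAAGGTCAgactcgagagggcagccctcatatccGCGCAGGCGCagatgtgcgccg
Ndufa5, chr6:24527691-24527940: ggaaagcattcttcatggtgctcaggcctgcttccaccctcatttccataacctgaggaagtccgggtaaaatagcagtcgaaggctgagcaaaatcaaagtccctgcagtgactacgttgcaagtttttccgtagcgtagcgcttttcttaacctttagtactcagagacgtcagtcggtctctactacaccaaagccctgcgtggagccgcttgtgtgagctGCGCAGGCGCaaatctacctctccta
Atp5e, chr2:174464102-174464351: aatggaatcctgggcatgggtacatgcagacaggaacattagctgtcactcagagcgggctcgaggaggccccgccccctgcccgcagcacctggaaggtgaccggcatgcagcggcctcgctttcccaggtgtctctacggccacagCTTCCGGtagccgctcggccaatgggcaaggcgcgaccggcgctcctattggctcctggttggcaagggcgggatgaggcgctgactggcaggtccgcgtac
The Ndufb4 window held 3 matches to the NRF1 motif (GCGCA, any base, GCGC), beginning 191, 79 and 22 bases before the start. It also held 1 match, at 55 bases, to AAGGTCA, a half-site of the estrogen-related receptors that contains the core AGGTCA. Ndufa5 held the NRF1 motif at 26 bases, from the most upstream of its RefSeq starts. Atp5e held CCGGAAG, letters of an ETS family site, at 102 bases on the opposite strand, so that the run shows it as CTTCCGG. The windows of Ndufb5 and Ndufs4 held none of the motifs. Over the 64 member genes with a RefSeq promoter, out of 79, the NRF1 motif on either strand was in 10 (15.6%, beside 4.23% of 27025 genes), and CCGGAAG in 12 (18.8%, beside 7.83%). AAGGTCA was in 4 (6.25%, beside 4.70%), the E-box CACGTG in 6 (9.38%, beside 6.86%), and AAGATGGC, letters of a YY1 site, in 1 (1.56%, beside 1.83%). The half-sites TAGGTCA and TGGGTCA, read by Rev-erb and its competitor ROR, were in 2 (3.12%, beside 2.55%) and 1 (1.56%, beside 3.73%). TGGGTCA is a variant with G for the A of the core AGGTCA. The letters and the window were chosen after counts had been seen. In the same windows the NRF1 motif with T as its free base was in 3 genes (4.69%, beside 0.877%) and CCGGAAGT in 3 (4.69%, beside 3.23%), and with 50 bases past the start AAGATGGC was in 10 (15.6%, beside 3.19%). The NRF1 motif with T is a case of the NRF1 motif and CCGGAAGT contains CCGGAAG, so the genes with these spellings are among those counted first, and a match is a match of letters only.

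Complex II, succinate dehydrogenase, had 5 kept probes for 3 genes, of which 0 passed. Among them was the Sdhb probe kept only through WT. Without it, a setting chosen after the data were seen, the other 4 had negative differences with a median of -0.28. Of these 4, 0 were higher and 1 lower at an unadjusted p under 0.05. Sdhb carries the iron-sulfur clusters, and Sdhc and Sdhd anchor the enzyme in the membrane. The dimmest Sdhb probe, in DKO at background on all but 2 arrays, read 6.66, 6.91, 6.77, 6.60, 7.19 and 7.61 in WT and 6.04, 5.82, 6.50, 6.97, 6.65 and 6.66 in DKO. A brighter Sdhb probe read 12.38, 12.25, 12.58, 12.40, 12.52 and 12.74 in WT and 11.58, 11.96, 12.03, 12.04, 12.37 and 12.36 in DKO. The third Sdhb probe read 13.10, 12.84, 12.97, 12.87, 13.17 and 13.26 in WT and 12.51, 12.87, 12.72, 12.77, 13.13 and 13.09 in DKO. In both brighter probes DKO ZT0 was the lowest sample and WT ZT20 the highest, and the ranges of all 3 overlapped. The differences of the brighter probes were -0.42 ± 0.12 and -0.19 ± 0.11, with limma adjusted p of 0.0602 and 0.28. Sdhd read 10.49, 10.31, 10.75, 10.06, 10.61 and 10.94 in WT and 9.91, 9.99, 9.83, 9.94, 10.86 and 10.41 in DKO. Sdhc read 13.17, 13.21, 13.09, 13.10, 13.29 and 13.53 in WT and 12.95, 13.14, 13.02, 12.95, 13.14 and 13.30 in DKO. Sdhd was high in DKO at ZT16 and low on slide 1, and Sdhc differed little, with overlapping ranges for both. Their differences were -0.37 ± 0.17 and -0.14 ± 0.09 (limma adjusted p of 0.181 and 0.334). Within slide 2 the median over these 4 probes was 0.09, and with slide as a fixed term it was 0.41, so the direction of complex II did not hold in either setting. The slide 2 value compares unlike times of day, so slide and time cannot be told apart there.

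Complex III had 1 of 7 kept probes lower (14.3%, beside 5.81% of all probes), 6 negative differences and a median of -0.07. Uqcrb, a small subunit at the ubiquinone-binding site, was the one that passed. Uqcrb read 13.67, 13.14, 13.47, 13.14, 13.56 and 13.47 in WT and 12.75, 12.89, 12.79, 12.74, 12.79 and 13.05 in DKO. Every DKO sample lay below every WT sample, and DKO was highest at ZT20. It was 1.49-fold lower in DKO (-0.57 ± 0.11, SE over 6 times per genotype, limma adjusted p = 0.0157), with a difference of -0.27 with slide as a fixed term and -0.48 within slide 2. Uqcr11, another small subunit, read 15.15, 14.99, 14.82, 14.87, 14.69 and 15.07 in WT and 14.67, 14.70, 14.60, 14.83, 14.60 and 14.79 in DKO. WT was above DKO at all times, most at ZT0, with overlapping ranges, and the difference of -0.23 ± 0.09 did not pass (limma adjusted p = 0.124). Uqcrc2, a core protein of the matrix side, read 14.52, 14.46, 14.21, 14.30, 14.51 and 14.34 in WT and 14.56, 14.48, 14.46, 14.58, 14.42 and 14.52 in DKO. Uqcr10, by the probe with the smaller difference, read 15.45, 15.05, 15.04, 14.97, 14.96 and 15.08 in WT and 14.92, 15.03, 15.04, 15.25, 15.02 and 15.06 in DKO. Both had overlapping ranges. The differences were 0.11 ± 0.08 for Uqcrc2 and -0.04 ± 0.09 for Uqcr10 (limma adjusted p of 0.411 and 0.814).

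Complex IV, cytochrome c oxidase, had 1 of 14 kept probes lower, 13 negative differences and a median of -0.15. The share lower, 7.14%, was near the 5.81% of all probes. Ndufa4, named for complex I, is counted here because the protein is a subunit of complex IV. Cox6c, a small subunit of the membrane part, was the probe that passed. Cox6c read 14.29, 14.07, 14.31, 14.14, 14.11 and 14.57 in WT and 13.87, 13.53, 13.83, 13.69, 13.74 and 13.88 in DKO. The groups were fully apart, with the highest DKO sample at 13.88 and the lowest WT sample at 14.07. Cox6c was 1.41-fold lower in DKO (-0.49 ± 0.11, SE over 6 times per genotype, limma adjusted p = 0.0226), with a difference of -0.16 with slide as a fixed term and -0.37 within slide 2. Cox7b read 8.57, 8.70, 8.50, 8.31, 8.58 and 9.31 in WT and 8.20, 8.01, 8.17, 8.49, 8.36 and 8.10 in DKO. The WT ZT20 sample was the highest by far, DKO was above WT at ZT12, and the difference of -0.44 ± 0.13 did not pass (limma adjusted p = 0.0602). Of 2 Cox6a1 probes, the one whose genotypes did not overlap differed by -0.33 ± 0.10 and the other by -0.10 ± 0.10 (limma adjusted p of 0.067 and 0.529). Cox5b read 15.32, 15.14, 15.32, 15.24, 15.21 and 15.20 in WT and 14.84, 15.30, 15.35, 15.34, 15.22 and 15.47 in DKO. Cox6b1, by the probe with the smaller difference, read 15.21, 14.95, 14.67, 14.80, 14.66 and 14.88 in WT and 14.73, 14.93, 14.73, 14.90, 14.85 and 14.82 in DKO. In both WT was above DKO at ZT0 and the ranges overlapped. Their differences were the highest of the complex, at 0.01 ± 0.11 and -0.04 ± 0.09 (limma adjusted p of 0.952 and 0.827). Cox7a1, the heart and muscle isoform of its subunit, read 8.96, 7.91, 7.87, 7.68, 7.72 and 8.11 in WT and 8.01, 7.81, 7.30, 7.56, 8.06 and 7.79 in DKO. WT ZT0 stood above the rest, the ranges overlapped and the difference of -0.28 ± 0.15 did not pass (limma adjusted p = 0.262).

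Complex V had 1 of 16 kept probes lower, with 9 negative and 7 positive differences and a median of -0.05. The share lower, 6.25%, was near the 5.81% of all probes. The probe that passed was for Atp5e, the epsilon subunit of the central stalk. Atp5e read 9.36, 9.16, 9.25, 9.08, 9.27 and 9.65 in WT and 8.72, 8.64, 8.74, 8.56, 8.83 and 9.19 in DKO. Both genotypes were highest at ZT20, where DKO reached the lower WT samples, so the ranges overlapped. Atp5e was 1.43-fold lower (-0.51 ± 0.11, SE over 6 times per genotype, limma adjusted p = 0.019), a difference that turned to 0.08 with slide as a fixed term and was -0.25 within slide 2. Atp5h, of the peripheral stalk, read 13.10, 12.79, 12.97, 12.87, 12.82 and 13.06 in WT and 12.61, 12.69, 12.50, 12.64, 12.59 and 12.82 in DKO. DKO was lower at 6 of 6 times with slightly overlapping ranges, and the difference of -0.29 ± 0.09 did not pass (limma adjusted p = 0.0671). Atp5o, which links that stalk to the catalytic head, read 9.70, 9.98, 9.64, 9.24, 9.64 and 9.60 in WT and 9.64, 9.99, 9.84, 9.80, 9.82 and 9.87 in DKO. Atp5c1, the gamma subunit of the central stalk, read 14.44, 14.67, 14.50, 14.42, 14.62 and 14.65 in WT and 14.67, 14.74, 14.66, 14.82, 14.63 and 14.57 in DKO. Their ranges overlapped, and their differences of 0.19 ± 0.10 and 0.13 ± 0.08 did not pass (limma adjusted p of 0.262 and 0.334). The probes for the catalytic beta subunit Atp5b and the c-ring subunit Atp5g3, at mean normalized levels of 16.11 and 16.10, were at the top of the signal range on every array, so their small differences set no limit.

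Of the 2 members that are no core subunit, Cox7a2l read 12.36, 12.19, 12.24, 12.30, 12.10 and 12.02 in WT and 12.16, 12.31, 12.21, 12.23, 12.15 and 12.23 in DKO. Ndufs5-ps read 12.80, 12.38, 12.21, 12.20, 12.13 and 12.36 in WT and 12.23, 12.32, 12.05, 12.20, 12.08 and 12.18 in DKO. Cox7a2l was about level, Ndufs5-ps was highest in WT ZT0, and the ranges overlapped. Their differences were 0.01 ± 0.08 and -0.17 ± 0.09 (limma adjusted p of 0.946 and 0.262).

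**Figure D2:**
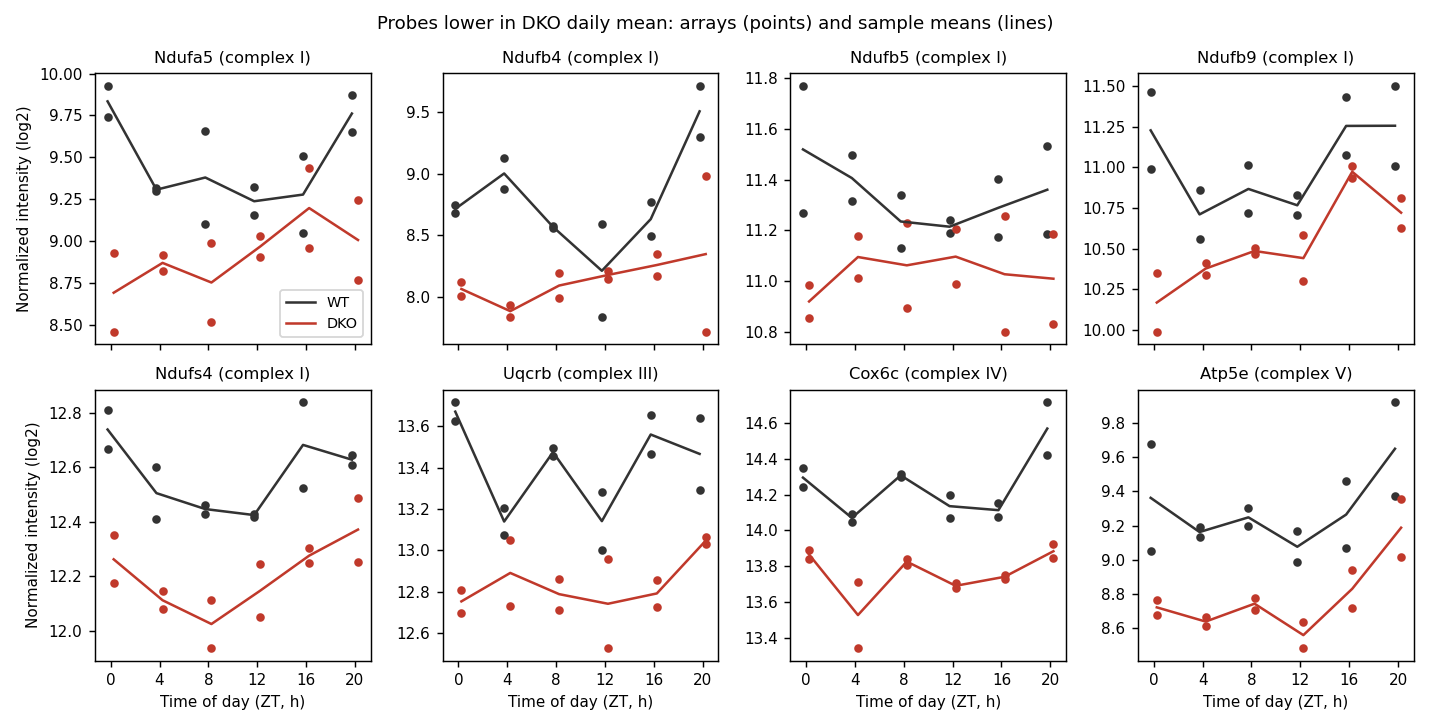
Normalized log2 intensity of the 8 probes lower in DKO against time of day (ZT, h), with points for single arrays and lines through the sample means, WT in black and DKO in red. The DKO line runs below the WT line at 6 of 6 times in each panel.

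The calls rested on the spread over the day and did not hold once slide was in the model. With slide as a fixed term, limma called 0 members lower, 0 at an unadjusted p under 0.05, and 6 of the 8 kept a negative sign, but it also called 0 of all 10243 probes in either direction. With slide as a random block it called 0 members, with 17 lower at an unadjusted p under 0.05, while the lower calls among all probes went from 595 to 107. The differences of the 8 changed little in that fit, at -0.59 for Ndufb4, -0.52 for Ndufa5 and -0.30 for Ndufb5. The median over all 84 members was -0.15 with the fixed term and -0.21 within slide 2, where DKO ZT16 and ZT20 stand against WT ZT0 and ZT4, beside 0.00 and -0.01 for all probes. By complex, the fixed-term medians were -0.14 for complex I, -0.25 for III, -0.20 for IV and 0.00 for V, and the slide 2 medians were -0.22, -0.21, -0.27 and -0.18. The count of 8 was 4 without ZT0, 0 without ZT8, 0 without ZT12, 1 without ZT16 and 2 without ZT20, with 15 and 19 lower at an unadjusted p under 0.05 where it was 0. The lower calls among all probes also went from 595 to 319, 129, 131, 172 and 150 in these 5 fits. Leaving out single samples, a setting chosen after the data were seen, it was 3 for WT ZT8 or DKO ZT12, and 5 for DKO ZT0, DKO ZT16 or WT ZT16. It was 8 for WT ZT0. The lower calls among all probes were 268 to 550 over the single-sample fits.

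Different probes of a gene were compared for 11 genes, and in 8 the differences had 1 sign. Ndufa8, Ndufv3 and Atp5j had probes on both sides of 0. By mean log2 level, 4 of the 18 members under 11 were lower, 2 of the 20 from 11 to 13, 1 of the 17 from 13 to 14 and 1 of the 29 over 14, with no test between the bands. The median differences were -0.28, -0.22, -0.12 and -0.04. All probes in these bands were lower in 6.01%, 5.51%, 3.90% and 4.94% of cases. At ZT0 alone the median difference was -0.57 in the dimmest and -0.45 in the brightest band.

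The size of the difference varied with time of day and was largest at ZT0. A probe was counted at a time when both DKO arrays lay on one side of both WT arrays and the higher mean exceeded the lower by at least 25%, a rule with no test because each time has 1 sample per genotype. At ZT0, 63 of the 84 members were lower and 0 higher in DKO, which is 75% beside 25.3% and 21.8% of all probes. At ZT4, 11 were lower and 1 higher, beside 11.7% and 11.6%. At ZT8, 20 were lower and 0 higher, beside 19.9% and 17.2%. From ZT4 on, the members' shares lower lay near or below the background. At ZT12, 9 were lower and 4 higher (20.4% and 19.2%), at ZT16, 7 and 2 (15.6% and 14.1%), and at ZT20, 15 and 1 (17.1% and 16.5%). The median difference over the members was -0.51 at ZT0 and then -0.06, -0.12, -0.03, -0.05 and -0.05, beside -0.03 for all probes at ZT0. All 5 complexes shared the ZT0 difference, with medians from -0.59 in complex II to -0.49 in complex I. Without the Sdhb probe kept only through WT samples, the complex II median at ZT0 was -0.58. The lowest single values at ZT0 were -1.14 for Ndufa5 and -1.06 for Ndufb9, and the highest was 0.23 for Atp5c1.

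**Figure D3:**
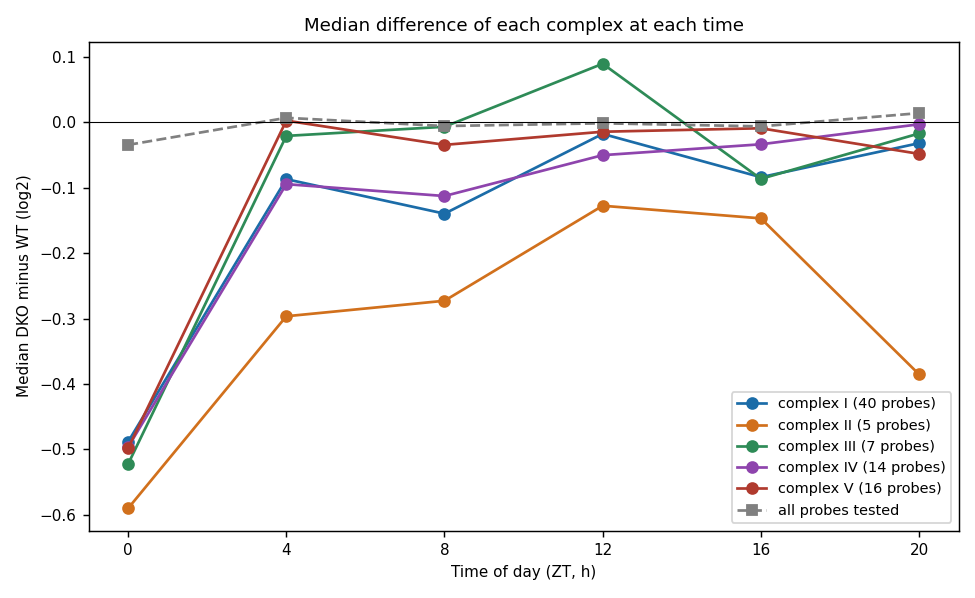
Median DKO minus WT difference (log2, vertical axis) of each complex at each time of day (ZT, h), with all probes tested as the grey dashed line. Every complex lies between -0.59 and -0.49 at ZT0, and from ZT4 on complexes I, III, IV and V lie nearer to 0 than complex II. The complex II line includes the Sdhb probe kept only through WT samples. Without that probe its medians were -0.58, -0.18, -0.41, -0.14, -0.10 and -0.30 from ZT0 to ZT20.

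The WT ZT0 sample lay furthest from the others. There, 75 of the 84 members lay above their own mean over 12 samples, with a median deviation of 0.31. The other WT samples had 54, 43, 30, 37 and 61 members above their mean from ZT4 to ZT20, with median deviations of 0.05, 0.01, -0.02, -0.03 and 0.08. In DKO the counts were 14, 37, 15, 32, 27 and 50 from ZT0 to ZT20, and the median deviations -0.14, -0.01, -0.13, -0.06, -0.05 and 0.02. WT ZT0 was thus the highest sample, with DKO ZT0 and DKO ZT8 the lowest. The high WT ZT0 values were shared by other gene families. Cytosolic ribosomal protein probes had a median deviation of 0.30 there (60 of 67 above their mean) and proteasome probes 0.26 (36 of 45), whereas mitochondrial Slc25 carriers had -0.05 (14 of 33). In the same comparison of daily means, ribosomal probes had a median difference of 0.00 with 2 of 67 lower (2.99%). Proteasome probes had -0.06 with 7 of 45 lower (15.6%), and Slc25 probes -0.05 with 4 of 33 lower (12.1%), all with 0 higher. The share of the members, 9.52%, lay below those of the proteasome and Slc25 probes, beside 5.81% of all probes. DKO ZT0 was also the sample with the high neutrophil, Kupffer cell and endothelial signals, whose part in the ZT0 difference was not tested.

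**Figure D4:**
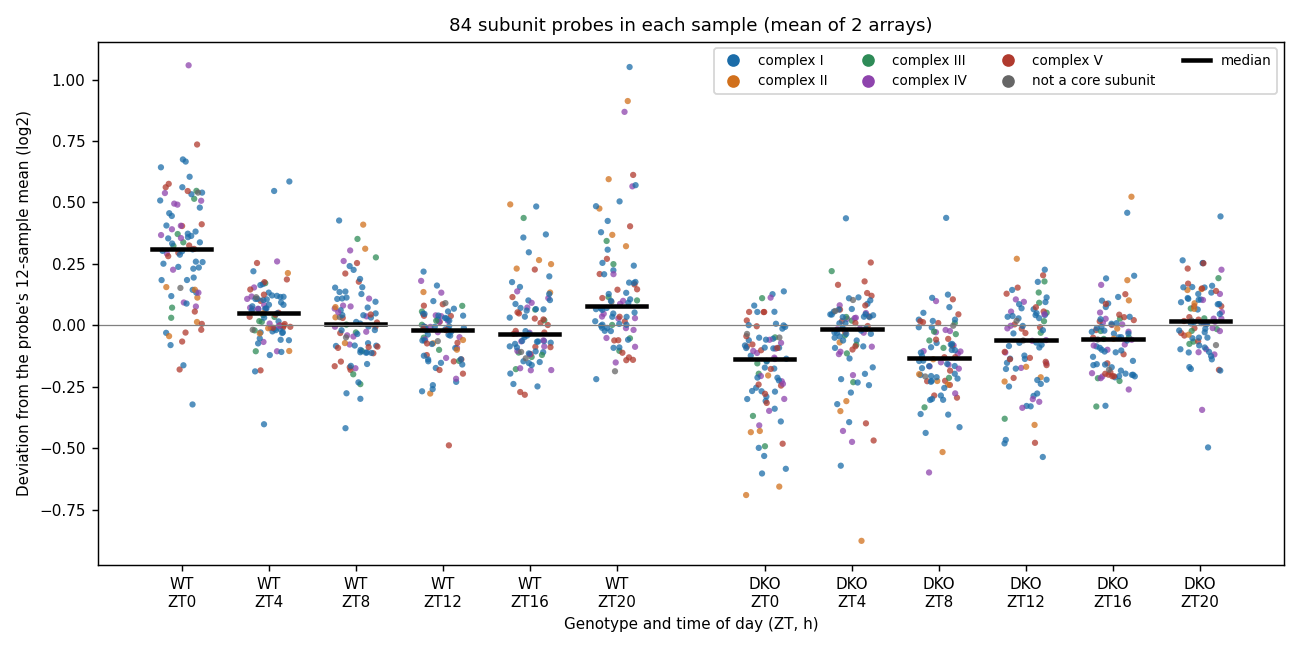
Deviation of each of the 84 members from its mean over the 12 samples (log2, vertical axis), by genotype and time of day, with 1 point per probe coloured by complex and the median as a black bar. The WT ZT0 points sit highest, with a median of 0.31, and the DKO ZT0 points have a median of -0.14.

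Comparisons on 1 slide avoid the slide but set different times against each other. On slide 2, WT ZT0 was higher than WT ZT4 for 34 members and lower for 0, beside 15.6% and 15.6% of all probes, with a median difference of 0.26. Against WT ZT0, DKO ZT16 was lower for 49 and higher for 4 members (20.3% and 19.8% of all probes), and DKO ZT20 lower for 37 and higher for 2 (21.0% and 21.1%). Against WT ZT4 the same DKO samples were lower for only 11 and 4 members and higher for 2 and 1 (12.4% and 14% of all probes lower, 12.6% and 13.8% higher). On slide 1, DKO ZT0 was lower than DKO ZT4 for 14 members and higher for 1 (18.2% and 15.0% of all probes). Within slide 2 the lower values of DKO were therefore seen mainly against WT ZT0. These pairs were chosen after the data were seen.

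Few daily rhythms were called among all probes, and 0 among the members. With 6 times per genotype, 0 calls do not show that rhythms were absent. A 24 h cosine fit called 0 of the 84 members rhythmic in WT, 0 in DKO and 0 different in rhythm between genotypes (limma, adjusted p under 0.05), beside 0.254%, 0.0683% and 0% of all probes. At an unadjusted p under 0.05 there were 7, 1 and 0 members, where 13.6%, 7.67% and 6.19% of all probes were. The 7 in WT were Ndufa3, Ndufb4, 1 Ndufs4 probe, Cox7a1, Atp5l, Atp5mpl and Ndufs5-ps, and the 1 in DKO was the Sdhb probe that DKO arrays measured on 2 of 12, so that 0 of the 81 members detected on all arrays reached it. The largest fitted amplitudes (peak minus mean, log2) in WT were 0.50 for Cox7a1 and 0.42 for Ndufb4, and in DKO, leaving out that Sdhb probe, 0.42 for Sdhd. The median amplitude of the members was 0.18 in WT and 0.08 in DKO, beside 0.19 and 0.16 for all probes. It was lower in DKO for 63 of 84 members, beside 5945 of 10243 probes.

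The fitted WT peaks gathered around lights on. For 65 of the 84 members (77.4%) the WT peak fell between ZT20 and ZT4, beside 35.3% of all probes, and in DKO it did so for 31 (36.9%, beside 32.9%). Without the WT ZT0 sample, a setting chosen after the data were seen, 56 members still peaked there in WT (66.7%, beside 35%), 57 had the lower amplitude in DKO and the median WT amplitude was 0.12. Since 0 members passed the rhythm test, these peaks describe the fits and no single rhythm.

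Genes that work with the chain were read from 6 lists of carriers, assembly factors, regulators and citrate cycle enzymes. Of their 88 kept probes for 65 genes, 6 were lower in DKO and 0 higher in daily mean (limma, adjusted p under 0.05), with a median of -0.07. The 6 are 6.82%, near the 5.81% of all probes. They include 1 Etfdh probe that passed the filter through WT samples and so had to differ. Among the 78 related probes detected on all 24 arrays, which leave it out, 6 were lower. Of all 7751 probes detected on all 24 arrays, 438 were lower. By list the share lower was 7.69% for carriers, 21.4% for the citrate cycle and 10% for complex IV assembly, each from few probes. The share of the carriers is that Etfdh probe alone. Among carriers, 1 of 13 was lower. It was 1 Etfdh probe, for the enzyme that passes electrons from fatty acid oxidation to ubiquinone. This probe was detected on 10 WT arrays but 2 DKO arrays, so that its DKO level is only bounded. The filter asked for 2 samples with both arrays detected, which 2 DKO arrays cannot supply. The probe passed through WT samples, so it had to differ, and its p-value is not given. The other Etfdh probe differed by -0.26 and did not pass. In the citrate cycle 3 of 14 were lower, namely Mdh2, mitochondrial malate dehydrogenase (-0.52 ± 0.11), Dld, a shared subunit of the 2-oxoacid dehydrogenases (-0.49 ± 0.11), and Suclg2, a subunit of succinyl-CoA ligase (-0.37 ± 0.09). Their limma adjusted p were 0.021, 0.0273 and 0.034.

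Of complex IV assembly factors, 2 of 20 probes were lower. They were for Lrpprc, which stabilises mitochondrial mRNAs (-0.43 ± 0.10, limma adjusted p = 0.0262), and for Surf1 (-0.33 ± 0.08, limma adjusted p = 0.0334). The other 2 Lrpprc probes differed by 0.23 and 0.08, and the other Surf1 probe by -0.10, and these did not pass. In the lists where 0 passed, the largest differences were -0.46 for Ndufaf3 (detected on 11 WT and 7 DKO arrays) among 17 probes for complex I assembly, -0.24 for an Atpaf2 probe among 12 for complexes II, III and V, and -0.37 for a Tfam probe among 12 for regulators (limma adjusted p of 0.15, 0.0764 and 0.0521). With slide as a fixed term 0 of the 88 were called, 0 lower at an unadjusted p under 0.05, and Mdh2 (0.15), Lrpprc (0.02) and the Etfdh probe turned positive. Without ZT8, ZT12, ZT16 or ZT20, 0 were called lower, with 12 to 15 lower at an unadjusted p under 0.05, and without ZT0 or ZT4, 2 were. Leaving out single samples gave 0 for WT ZT8, 1 for DKO ZT12, 2 for each of WT ZT12, WT ZT16 and WT ZT20, and 3 for each of DKO ZT0, DKO ZT8 and WT ZT0.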

How the data were processed

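Illumina bead array files of 24 arrays were used. Per the file headers, the authors deposited for each array and probe the mean raw intensity of its beads, the standard error of those beads (a signal), the bead count and a detection p-value. GenomeStudio is named in the submitters' processing notes. The authors' processed intensities, deposited as a further table without a stated normalization, served as an alternative. Raw intensities were background corrected with limma's normexp from the detection p-values (offset 16), quantile normalized and put on the log2 scale (R 4.3.3, limma 3.58.1). Probes were kept where 2 or more of the 12 samples had a detection p under 0.01 on each array, which left 10243 of 25697 probes. Arrays of a sample, labelled technical replicates, were averaged. Each probe was fitted with a mean and a 24 h cosine and sine per genotype (6 residual degrees of freedom), with Benjamini-Hochberg adjustment over 10243 probes and a threshold of 0.05. Slide as a fixed term leaves 4 residual degrees of freedom. Symbols came from the platform annotation in GEO, in which 23978 probes had 1 symbol and 1719 none. The script was tested on simulated data.

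Members and gene lists were chosen with earlier results of these data known. Named were all probes past a test, the 2 highest and 2 lowest differences of each complex, the 2 largest amplitudes per genotype and the tissue isoforms. Of the lists of related genes, those past a test were named, or the 1 with the largest difference. Of the marker lists, the summed signal (log2) was 17.13 to 17.14 in WT and 17.12 to 17.13 in DKO for hepatocytes, 11.37 to 11.97 and 11.62 to 12.82 for Kupffer cells, 14.01 to 14.22 and 13.98 to 14.67 for endothelium, 14.63 to 14.86 and 14.73 to 15.17 for stellate cells, 7.27 to 8.04 and 7.76 to 8.76 for cholangiocytes, 9.28 to 10.14 and 9.48 to 12.42 for neutrophils, 8.78 to 9.05 and 8.77 to 9.21 for lymphocytes, 7.99 to 8.14 and 8.00 to 8.15 for striated muscle, and 7.38 to 10.85 and 7.38 to 7.63 for adipocytes. Alternatives covered the background correction, the normalization, the filter, the probes of a gene, the technical replicates, the slide, the variances, the time terms and leaving out times, arrays and samples.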

Additional observations from a re-analysis of the deposited data

Results flagged for a closer look

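The WT ZT0 sample stood apart from the other WT times. The median deviation of the 84 members from their own means was 0.31 there, and the next highest WT value was 0.08. The gap was 0.671 of the range over the 6 WT times. The times of day are not replicates of one group, and chance puts about 1 in 20 such groups past this limit.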

How the results depend on the processing

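The median difference of the members stayed negative under each alternative run for it, from -0.38 to -0.06, the last without ZT0, but the number of members called lower, 8, did not hold. It was 15 without background correction, 15 with the authors' processed values, 14 with an intensity trend and robust variances, 57 with median scaling and 16 with arrays as separate samples and the sample as a random block. With slide as a fixed term or as a random block it was 0, where the lower calls among all probes were 0 and 107 against 595. The replicate numbers mark technical arrays of one RNA sample and do not pair samples. With arrays as separate samples and the replicate block it was 34 lower and 1 higher, with 21 members rhythmic in WT, against 3 for the random block. Median scaling moved the median of all probes to -0.22, and the members to -0.38, and 242 of all probes were then higher and 2981 lower, against 425 and 595. Leaving out times, arrays or samples gave 0 to 11 members lower, and for the related genes 0 to 7 lower and 0 to 1 higher. For the related genes, 6 lower became 10 without background correction, 10 with the authors' values, 36 with median scaling, 3 with the brightest probe per gene, 12 with the random block and 21 with the replicate block (with 1 and 4 higher), and 0 with either slide term, and 1 was higher with time as a factor. With slide as a fixed term Ndufb9 (0.0553), Atp5e (0.0754), Etfdh (0.37), Lrpprc (0.0201) and Mdh2 (0.15) reversed, and Mdh2 within slide 2 (0.28). The Etfdh probe is the one that passed the filter through WT samples. The causes were not tested.

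With a 1.5-fold minimum the members lower at single times were 26, 4, 3, 1, 1 and 6 from ZT0 to ZT20 (41 in sum, against 125), and those higher from ZT4 on were 0, 0, 0, 1 and 0 (1 in sum, against 8). Median scaling gave 61, 51, 52 and 53 lower from ZT8 to ZT20 (290 in sum), with 0, 1 and 0 higher at ZT12, ZT16 and ZT20 (2 in sum). No background correction and the authors' values each gave 3 lower at ZT16, 0 higher at ZT4 and ZT16, and 5 higher in sum. The brightest probe per gene gave 6 lower at ZT4. An offset of 50, probes on all 24 arrays and the brightest probe each gave 1 higher at ZT16, and no filter gave 2 higher at ZT4 and at ZT20. Signal over background limits the 3 members detected on only some arrays.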
